A study of Mus musculus with 8 samples.

Results

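Mbp, Mobp, Mal, Mag, Mog, Cldn11, Cnp, Ermn and Opalin, 9 genes of compact myelin and of the mature oligodendrocyte, were examined in hippocampal RNA-sequencing data of 8 mice. They were chosen by name, by matching the Ensembl identifiers of the deposited table to these symbols, and all 9 were found among the 20802 listed genes. All 9 were also among the 18865 genes tested, those with at least 10 normalized counts on average over the 8 mice. Normalized counts are estimated reads per gene divided by a size factor of the library, as the authors deposited them.

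The Anesthesia group held 4 male C57BL/6 mice that were given ketamine, an anesthetic that blocks NMDA-type glutamate receptors, by intraperitoneal injection at 35 mg per kg once a day, 5 injections in all from PND16. The Control group held 4 male C57BL/6 mice given normal saline on the same schedule, although the sample titles call them untreated. The hippocampus was taken 1 week after the injections, the labels give an age of P28 for all 8 mice, and no engineered allele is given for either group. The library kit is named as a stranded total RNA kit in the methods of the study and as another TruSeq RNA kit in the labels, and the mice were compared here to ask how far myelin genes vary between mice and whether the Anesthesia and Control groups differ in them.

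Oligodendrocytes wrap axons in myelin, a stack of membrane that is rich in lipid and in a small set of proteins and that speeds conduction. Precursor cells leave the cell cycle, pass through a short premyelinating stage and then switch on the genes of the myelin sheath together, under transcription factors that include Olig2, Sox10 and Myrf. In the mouse hippocampus much of this myelin is formed in the weeks after birth, so the injections and the sampling both fell within the period of myelination. In a bulk sample, fewer oligodendrocytes and less RNA per oligodendrocyte cannot be told apart.

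The start regions of 3 of the genes are shown because they carry the letters that the Sox family and Myrf are known to bind, in different numbers. The windows come from RefSeq on GRCm38.p6 and run from 250 bases before to 50 bases after a start site. Mbp was left out of the search, and the other 8 genes had 10 windows. Of these, 3 were at Mag, where the window shown overlaps another. Of each window shown, the 200 bases from 250 to 51 bases before the start site are printed, 5′ to 3′ on the strand of the gene, with capitals for ACAANG (the Sox family letters) and CTGGNAC (the Myrf letters) on either strand. The Mobp sequence is chr9:120149492-120149691 on the plus strand, the Mag sequence chr7:30914914-30915113 on the minus strand, and the Cnp sequence chr11:100574689-100574888 on the plus strand.
Mobp: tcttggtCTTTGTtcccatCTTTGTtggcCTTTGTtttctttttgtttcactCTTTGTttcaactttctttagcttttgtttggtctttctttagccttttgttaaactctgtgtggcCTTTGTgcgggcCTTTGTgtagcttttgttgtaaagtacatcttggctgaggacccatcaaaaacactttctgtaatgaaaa
Mag: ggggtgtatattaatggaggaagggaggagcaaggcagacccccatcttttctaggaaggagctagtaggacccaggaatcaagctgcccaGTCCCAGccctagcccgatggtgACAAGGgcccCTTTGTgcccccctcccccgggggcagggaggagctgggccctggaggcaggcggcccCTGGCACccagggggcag
Cnp: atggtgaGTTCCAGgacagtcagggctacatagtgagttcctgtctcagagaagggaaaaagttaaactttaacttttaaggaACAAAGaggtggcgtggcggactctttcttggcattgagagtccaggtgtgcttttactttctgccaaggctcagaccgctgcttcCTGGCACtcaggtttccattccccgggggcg

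Mobp held 6 matches to the Sox letters and 0 to the Myrf letters. Mag held 2 of each, and Cnp held 1 Sox match and 2 Myrf matches. In the windows shown, the closest Myrf match began 68 bases before the start site of Mag and 81 bases before that of Cnp, and both read CTGGCAC. The Sox letters were in at least 1 window of 6 of the 8 genes (Cnp, Ermn, Mag, Mobp, Mog and Opalin). By window, they were in 8 of the 10 and in 41.3% of the 32817 windows of all genes. The Myrf letters were in 4 of the 8 genes (Cnp, Mag, Mog and Opalin), in 5 of the 10 windows and in 19.3% of all windows. The overlapping Mag windows hold the same Sox and Myrf matches, so both of these windows are counted for the same letters. Basic helix-loop-helix factors such as the Olig proteins can bind the E-box letters CAGCTG. These were in 1 of the 8 genes (Opalin), in 1 of the 10 windows and in 16.3% of all windows. The CCAAT letters were in 3 of the 8 genes (Cldn11, Ermn and Mag), in 4 of the 10 windows and in 37.4% of all windows. TATAAA was in 0 of the 10 windows and in 13.6% of all windows. All letters were searched on both strands, and a match describes the letters only. The GC content of the windows lay between 43.3% (Mobp) and 66.3% (Cldn11), against a median of 52.7% over all windows.

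Low values gathered near multiples of what 1 read is worth, which placed the depth at approximately 15400000 to 22200000 reads per library. Neuronal genes were abundant in every library, with a summed value of the 10 listed neuron genes between 71090 and 83671 normalized counts. Genes of the choroid plexus, a tissue that lies against the hippocampus, separated the libraries, with a summed value of 10 listed genes of 26391 to 66127 in Anesthesia 1, Control 2, Control 3 and Control 4 and of 414.6 to 3261 in the other 4 libraries. The sums of the 9 myelin genes in the 4 libraries rich in choroid plexus genes lay between 90790 and 136910, and in the other 4 libraries between 73877 and 143120. Of 6 listed genes of peripheral, Schwann cell myelin, 3 were tested, and Drp2, with 1099 to 1396 normalized counts per library, made up 95.6% of their sum, while Prx and Cldn19 together had 39.8 to 101 normalized counts.

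The structural genes of the sheath were the most abundant. Mbp (ENSMUSG00000041607, chromosome 18, 82475146 to 82585637 on GRCm38) encodes myelin basic protein, which holds the inner faces of the compacted membrane together, and its locus also gives the longer golli transcripts that are counted with it here. It had 33754, 35286, 31459 and 57023 normalized counts in Anesthesia 1 to 4 and 26358, 36041, 51603 and 45148 in Control 1 to 4. The groups overlapped, with 1 high Anesthesia mouse and with the lowest mouse in the Control group. The mean of Mbp was 39381 ± 11866 for Anesthesia and 39787 ± 10996 for Control mice (SD, n = 4 each), and its log2 fold change was -0.01 (SE 0.22, limma adjusted p = 0.990).

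Mobp (ENSMUSG00000032517, chromosome 9, 120149707 to 120181484) encodes myelin-associated oligodendrocyte basic protein, a small basic protein of compact myelin. Its values were 22109, 24973, 20544 and 34821 normalized counts in Anesthesia 1 to 4 and 19099, 24701, 34812 and 32445 in Control 1 to 4. Anesthesia 4 and Control 3 differed by fewer than 10 normalized counts, and the other 3 Anesthesia mice lay between Control 1 and Control 4. The log2 fold change of Mobp was -0.11 (SE 0.20, limma adjusted p = 0.891).

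Mal (ENSMUSG00000027375, chromosome 2, 127633226 to 127656695) encodes a membrane-spanning proteolipid of myelin that takes part in membrane sorting. It had 11226, 10703, 9055 and 17150 normalized counts in Anesthesia 1 to 4 and 9282, 11750, 16699 and 15469 in Control 1 to 4. Both the lowest and the highest mouse belonged to the Anesthesia group. The log2 fold change was -0.15 (SE 0.21, limma adjusted p = 0.852).

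The genes of adhesion and of the tight junctions of the sheath shared the mice at the low and high ends. Mag (ENSMUSG00000036634, chromosome 7, 30899176 to 30914873) encodes myelin-associated glycoprotein, which lies on the innermost wrap facing the axon, and had 5815, 5643, 4867 and 8612 normalized counts in Anesthesia 1 to 4 and 4831, 5557, 8189 and 7317 in Control 1 to 4. Mog (ENSMUSG00000076439, chromosome 17, 37010743 to 37023398) encodes myelin oligodendrocyte glycoprotein, an immunoglobulin-like protein of the outermost surface of the sheath, and had 1537, 1453, 1329 and 2039 against 1204, 1611, 2321 and 2111 in the same order. Cldn11 (ENSMUSG00000037625, chromosome 3, 31149920 to 31164324) encodes claudin-11, the tight junction protein of central myelin, and had 4899, 4786, 4244 and 7506 against 4139, 5281, 7428 and 6824. For Mag and Cldn11 the highest mouse was Anesthesia 4 and for Mog it was Control 3, and in all 3 genes Control 1 was the lowest. The log2 fold changes were -0.06 for Mag (SE 0.19, limma adjusted p = 0.946), -0.16 for Mog (SE 0.20, adjusted p = 0.825) and -0.14 for Cldn11 (SE 0.20, adjusted p = 0.851).

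The remaining genes act in the channels and processes of the oligodendrocyte. Cnp (ENSMUSG00000006782, chromosome 11, 100574904 to 100591729) encodes a cyclic nucleotide phosphodiesterase that keeps cytoplasmic channels in the sheath open, and had 9450, 9108, 8232 and 13062 normalized counts in Anesthesia 1 to 4 and 7456, 9417, 13207 and 12218 in Control 1 to 4. Ermn (ENSMUSG00000026830, chromosome 2, 58045113 to 58052864) encodes ermin, a cytoskeletal protein of late oligodendrocyte maturation, and had 1365, 1271, 1149 and 2107 against 1040, 1387, 1883 and 1805. Opalin (ENSMUSG00000050121, chromosome 19, 41061710 to 41077113) encodes a glycosylated membrane protein of the paranodal loops, and had 634.5, 580.4, 431.1 and 802.7 against 468.2, 577.1, 766.5 and 682.4. Opalin was the member with the highest value of Anesthesia 1 relative to its own mean, 1.03 times the mean of the 8 mice. The log2 fold changes were -0.07 for Cnp (SE 0.18, limma adjusted p = 0.926), -0.06 for Ermn (SE 0.21, adjusted p = 0.951) and -0.04 for Opalin (SE 0.19, adjusted p = 0.966).

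**Figure D1:**
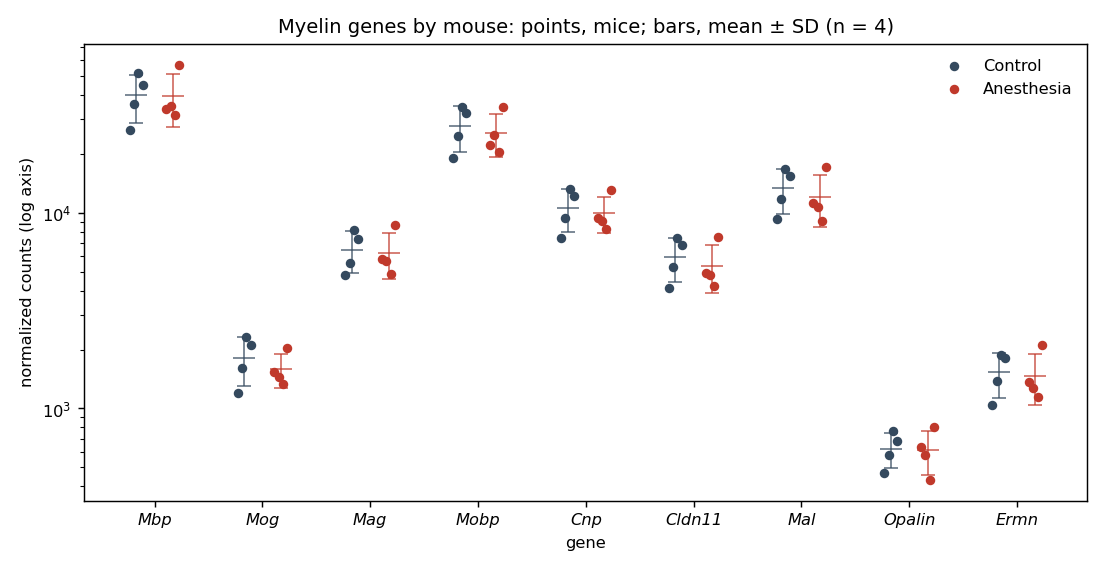
Normalized counts (log axis) of the 9 myelin genes in each mouse, with Control in dark blue and Anesthesia in red; points are mice and bars the mean ± SD (n = 4 each). In every gene the points of the groups overlap, and 1 Anesthesia point stands above the other 3.

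Levels of different genes were compared per kilobase of transcript, taking the median length of the protein-coding transcripts of each gene in GENCODE M21. On that scale Mobp had 53590 ± 12891 normalized counts per kb (SD over 8 mice), Mbp 20462 ± 5476, Mal 7761 ± 2012 and Cnp 4357 ± 949.2. Cldn11 followed with 3015 ± 747.9, Mag with 2627 ± 612.2, Mog with 1459 ± 347.6, Ermn with 412.9 ± 105.3 and Opalin with 336 ± 71.5 normalized counts per kb. Each gene was higher per kb than the next in 8 of 8 mice, with the closest neighbours being Cldn11 and Mag (1.09 to 1.23 times) and Ermn and Opalin (1.09 to 1.35 times). The order at the top rested on the length used. Mobp has 5 protein-coding transcripts of 435 to 3286 bases and Mbp has 14 of 354 to 4797 bases, and with the longest transcript of each gene Mbp had 8252 and Mobp 8122 normalized counts per kb, with Mbp the higher in 4 of 8 mice. Mal was then higher than Cnp in 6 of 8 mice.

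No member differed between the groups past the threshold. With limma on log2(value + 1), 0 of 9 members passed an adjusted p of 0.05 and 0 of 9 an unadjusted p of 0.05. Over all genes tested, 0 of 18865 (0%) passed the adjusted threshold of 0.05, and 1513 (8.02%) passed the unadjusted one, 897 of them higher (4.75%) and 616 lower (3.27%) in the Anesthesia group. The study, which used DESeq2, did report genes under that adjusted threshold, so the 0 belongs to the limma fit of the deposited values. All 9 members had overlapping groups, where 950 of all genes tested (5.04%) did not overlap. All 9 fitted values were lower in the Anesthesia group, as were those of 50.8% of all genes, and because the 9 genes follow each other across mice their signs are not separate observations. The median log2 fold change of the members was -0.07, and over all genes it was -0.0036. The 95% intervals were wide and ran from a ratio of Anesthesia over Control of 0.705 to 1.39 for Mbp, 0.661 to 1.21 for Mog, 0.716 to 1.29 for Mag and 0.651 to 1.25 for Mal. With 4 mice in each group, a difference in either direction inside these intervals was not excluded.

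**Figure D2:**
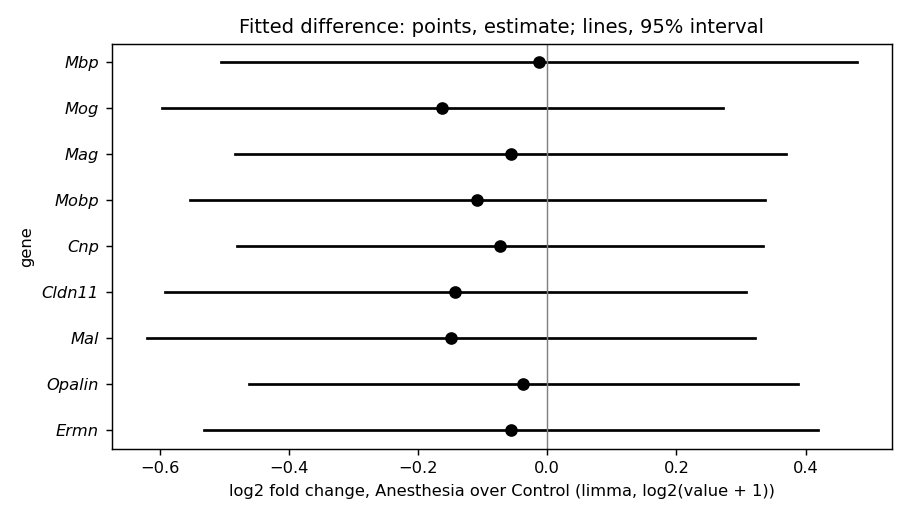
Fitted log2 fold change of Anesthesia over Control for the 9 genes, from limma on log2(value + 1), with points for the estimate and lines for the 95% interval. All 9 estimates lie between -0.16 and -0.01 and every interval includes 0.

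The sign of the difference depended on which mice were compared. The median log2 fold change of the members was -0.24 without Anesthesia 4 and 0.05 without Control 3, and all 9 members were fitted lower in the first case and 6 of 9 higher in the second. With the mean of the choroid plexus genes as a covariate, all 9 were fitted higher in the Anesthesia group, between 0.03 for Cldn11 and 0.16 for Mbp on the log2 scale, with 0 of 9 at an unadjusted p under 0.05. The libraries low in choroid plexus genes held a single Control mouse and the libraries rich in them a single Anesthesia mouse, so no comparison of the groups within either set is given, and the part of choroid plexus tissue in the result was not tested.

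Mice of 1 group differed by more than the group means did. The summed value of the 9 genes was 90790, 93803, 81311 and 143120 normalized counts in Anesthesia 1 to 4 and 73877, 96322, 136910 and 124020 in Control 1 to 4. The highest mouse had 1.94 times the lowest, and the widest step in the ordered sums lay between Control 2 and Control 4. Of all normalized counts, the 9 genes took 0.541% ± 0.149 in Anesthesia mice and 0.573% ± 0.150 in Control mice (SD, n = 4 each). Mbp made up 37.7% of the sum, Mobp 25.4%, Mal 12.1% and Cnp 9.78%.

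The same mice were at the ends for every gene. Control 1 and Anesthesia 3 were the lowest 2 mice for all 9 genes, Control 1 being the lowest for 7 and Anesthesia 3 for Mal and Opalin. Anesthesia 4, Control 3 and Control 4 were the highest 3 for all 9, with Anesthesia 4 the highest for 7 and Control 3 for Mog and Cnp. The median ratio of a gene to its own mean over the 8 mice was 0.904, 0.887, 0.766 and 1.33 in Anesthesia 1 to 4 and 0.726, 0.926, 1.3 and 1.2 in Control 1 to 4. Each group held at least 1 mouse from the lowest 2 and at least 1 from the highest 3.

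**Figure D3:**
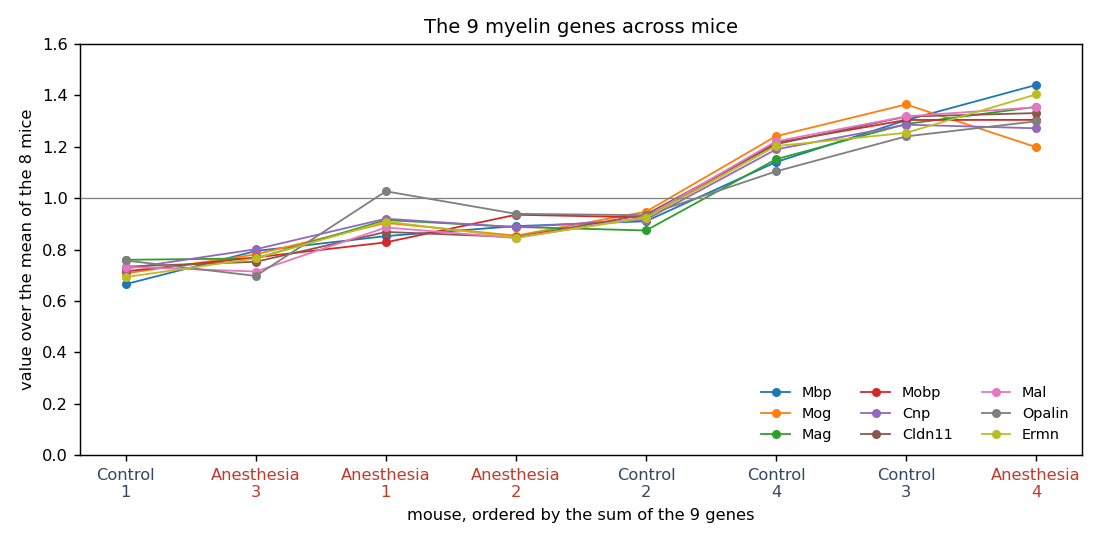
Value of each of the 9 genes over its own mean of the 8 mice (vertical axis, linear from 0), with the mice ordered by the sum of the 9 genes and their names coloured by group. The 9 lines run close together from between 0.666 and 0.760 in Control 1 to between 1.199 and 1.44 in Anesthesia 4, and the groups are mixed along the order.

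The ratio of the highest to the lowest mouse was 2.16 for Mbp, 2.03 for Ermn and 1.93 for Mog, and for the other 6 genes it lay between 1.77 and 1.89. Among the 4035 genes that averaged at least 1000 normalized counts, 153 (3.79%) had a ratio of at least 1.8, a threshold chosen with these values known. The SD of log2(value + 1) around the group means was 0.41 for Mbp, 0.39 for Ermn and Mal, and 0.33 for Cnp, the lowest of the 9. Against the genes averaging at least 1000, which do not include Opalin (mean 617.9 normalized counts), these SDs were at the 97.9th to 99.3rd percentile. They were at the 74.5th to 82.4th percentile of all genes tested, which include many genes of low value and high spread.

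The members followed each other closely across mice. Over the 36 pairs, Pearson's r of log2(value + 1) in the 8 mice was between 0.903 (Mog and Opalin) and 0.997 (Cldn11 and Mal), with a median of 0.976. The exact permutation p over all 40320 pairings (two-sided) was between 2.48e-05, the smallest it can give, and 0.00280, and after adjustment over the 36 pairs between 0.000446 and 0.00280. Spearman's rho was between 0.833 and 1.0, with an adjusted exact permutation p of 0.00179 to 0.0154. Without the 2 mice farthest from the median of the first gene of a pair, in 28 of the 36 pairs Anesthesia 4 and Control 3, r lay between 0.796 (Mbp and Opalin) and 0.996, with a median of 0.965. Taken as deviations from the group means, so that a difference between groups could add nothing, r lay between 0.911 and 0.997. The median r of the 36 pairs stayed between 0.970 and 0.981 under other scalings, a GC and length correction and the removal of any 1 mouse. The 8 points of each pair share their library and its size factor.

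Proportions between members varied less from mouse to mouse than their levels. For each gene the mean log2 value of the other 8 members was subtracted in each mouse, and the SD of this difference over the 8 mice was between 0.04 (Cldn11) and 0.12 (Opalin). Cldn11 relative to the other 8 was -0.11, -0.12, -0.07 and -0.05 in Anesthesia 1 to 4 and -0.03, -0.03, -0.03 and -0.02 in Control 1 to 4. It was the only member whose groups did not overlap on this scale, with a difference between group means of -0.06. Relative to the mean of the members, 0.562% of all genes tested did not overlap, against 5.04% without that subtraction. The 0.562% is not a like background for a member. Subtracting the member mean adds the spread of the members to genes that do not follow them. Opalin relative to the others was highest in Anesthesia 1 (-3.43) and lowest in Anesthesia 3 (-3.78), so that its widest difference lay within a group. No test was made of these differences.

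Other genes of the mature sheath followed the members to differing degrees. Of 30 further genes of myelin structure and mature oligodendrocytes, 29 were tested (Klk6 was under the filter), 6 were fitted higher and 23 lower in the Anesthesia group, and 0 had an adjusted p under 0.05. Their median log2 fold change was -0.06, and their median r with the mean profile of the 9 members (each gene scaled to its own mean and SD) was 0.911, with 16 of 29 over 0.9. Over all genes tested the median r was -0.01, and 139 of 18865 had an r over 0.9, the 9 members included.

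Trf, the iron carrier transferrin that oligodendrocytes make, had an r with the member profile of 0.911 and a log2 fold change of -0.23 (SE 0.15, limma adjusted p = 0.694). Enpp2, the gene of autotaxin, is also made by the choroid plexus, and its 29323 normalized counts in Anesthesia 1 and 19287 to 36673 in Control 2 to 4 were far above the 3710 to 6486 of the libraries low in choroid plexus genes. Its r with the member profile was 0.572.

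Nfasc encodes neurofascin, with a glial form at the paranode and neuronal forms at the node and the axon initial segment, and was the only gene of this list with an unadjusted p under 0.05. Its level was 5785 ± 725.9 normalized counts for Anesthesia and 4654 ± 674.3 for Control mice (SD, n = 4 each), and its log2 fold change was 0.32 (SE 0.12, unadjusted p = 0.0212, limma adjusted p = 0.620). Its r with the member profile was 0.406, the lowest of the list, and the gene-level value does not separate its forms.

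The 10 genes most like the member profile, among 12238 with a mean of at least 100 normalized counts, included Gsn, Tspan2, Plekhb1, Clic4, Ndrg1, Car2, Tns3, Lpar1 and Pllp, with r from 0.985 down to 0.977 over the 8 mice. Of the 10, 6 were on the list of further myelin genes, and Clic4, Ndrg1, Tns3 and Lpar1 were on no list. An r over 0.9 was found for 106 of the 12238 genes. The 5 lowest were Gm42446, Zfp940, Fnbp4, Ddit3 and Stk32c, with r of -0.957 to -0.938, and their values differed little between mice, with a highest mouse 1.19 to 1.37 times the lowest. These likenesses describe 8 mice and were not tested.

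The median r was lower in lists of lipid synthesis, of regulators and of earlier stages. For 16 genes of myelin lipid synthesis the median r was 0.838, with 6 over 0.9, and 11 were fitted higher and 5 lower in the Anesthesia group. Ugt8a, which makes the galactolipids of myelin, had an r of 0.972 and a ratio of the highest to the lowest mouse of 1.88. Hmgcs1 and Cyp51, of the cholesterol pathway that all cells use, had r of 0.948 and 0.873 with ratios of 1.24 and 1.35. For 12 transcription factors of the lineage the median r was 0.70, with 8 fitted higher and 4 lower, and r was 0.953 for Olig1, 0.685 for Sox8, 0.531 for Zfp24 and 0.372 for Zfp536.

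For 11 genes of newly formed oligodendrocytes (Tmem2 of the 12 listed was not among the genes analysed here) the median r was 0.703, with 3 fitted higher and 8 lower. Gpr17 and Bcas1, which mark the premyelinating stage, had r of 0.935 and 0.914, Fyn, a kinase of early myelination, had 0.844, and Sirpa, which neurons and microglia also express, had -0.532. For 13 genes of oligodendrocyte precursors the median r was 0.272, with 7 fitted higher and 6 lower, and r was 0.508 for Pdgfra, the receptor that defines these cells, 0.661 for Vcan, -0.0449 for Xylt1 and -0.291 for Ptprz1, which astrocytes also express. None of these 4 lists held a gene with an adjusted p or an unadjusted p under 0.05 in limma. With each gene weighted equally, the mean value over the 8-mouse mean differed by 1.84 times between the highest and the lowest mouse for the 9 members, 1.38 times for the newly formed oligodendrocyte genes and 1.19 times for the precursor genes. Single genes of these lists overlapped the members in range, from 1.20 times (Fyn) to 2.54 times for newly formed oligodendrocytes and from 1.17 times (Pdgfra) to 3.06 times for precursors, against 1.77 to 2.16 times for the members. The summed lists differed less, by 1.16 and 1.11 times, and these sums rest on Sirpa (35% of the newly formed sum) and Ptprz1 (39.4% of the precursor sum), without which they differed by 1.3 and 1.22 times.

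**Figure D4:**
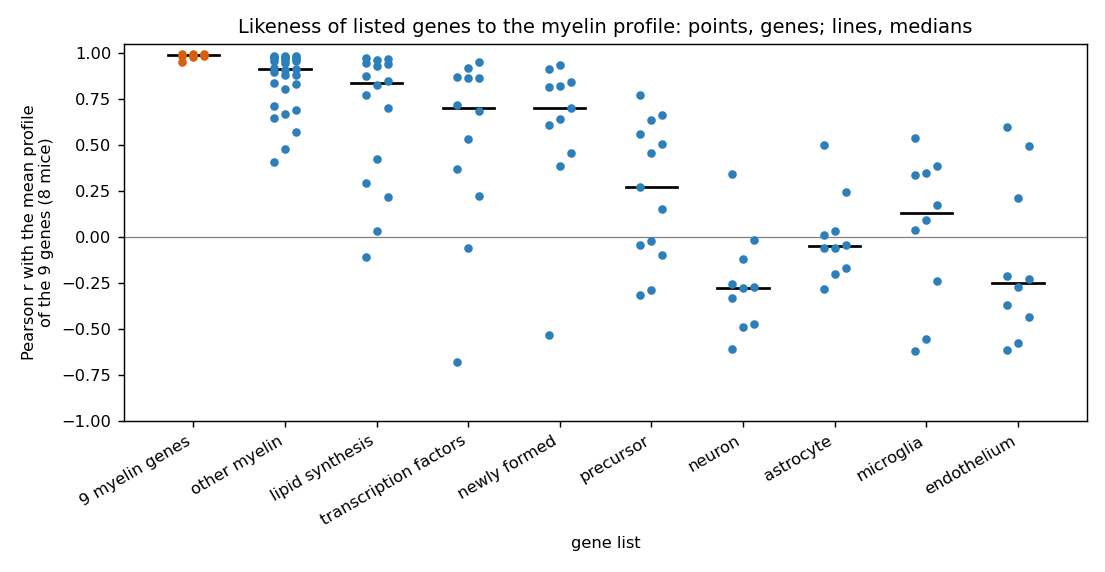
Pearson r of each gene with the mean profile of the 9 members over 8 mice (vertical axis), by gene list. Points are genes and horizontal lines list medians. The profile contains the members themselves, so the r of the members is not comparable with that of the other lists. Medians step down from 0.911 for further myelin genes through 0.838 for lipid synthesis and 0.703 for newly formed oligodendrocytes to 0.272 for precursors, and lie between -0.276 and 0.131 for neuron, astrocyte, microglia and endothelium genes.

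Lists of other cell types had median r values below those of the mature oligodendrocyte lists. The median r was -0.276 for 10 neuron genes, 9 of which had an r under 0, -0.0511 for 10 astrocyte genes, 0.131 for 10 microglia genes and -0.251 for 10 endothelial genes. The summed neuron genes differed by 1.18 times between mice, with the highest sum, 83671 normalized counts, in Anesthesia 3, one of the mice lowest in myelin genes. For 8 genes of hippocampal fields the median r was 0.03 and for 8 thalamic genes 0.03. The 10 choroid plexus genes had a median r of 0.591 and a median log2 fold change of -1.95, with 0 of 10 at an unadjusted p under 0.05, and the 5 blood genes had a median r of 0.388. The part of dissection, or of any of these tissues, in the spread of the myelin genes was not tested. Anesthesia 4, the mouse with the highest myelin sum, had 3261 normalized counts of choroid plexus genes. Anesthesia 1, with 56837, had a myelin sum of 90790. Control 3 and Control 4, with 66127 and 66009, had myelin sums of 136910 and 124020. Control 1 and Anesthesia 3, with 510.9 and 414.6, had the lowest myelin sums, 73877 and 81311. Anesthesia 2, with 828.5, had 93803, and Control 2, with 26391, had 96322.

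**Figure D5:**
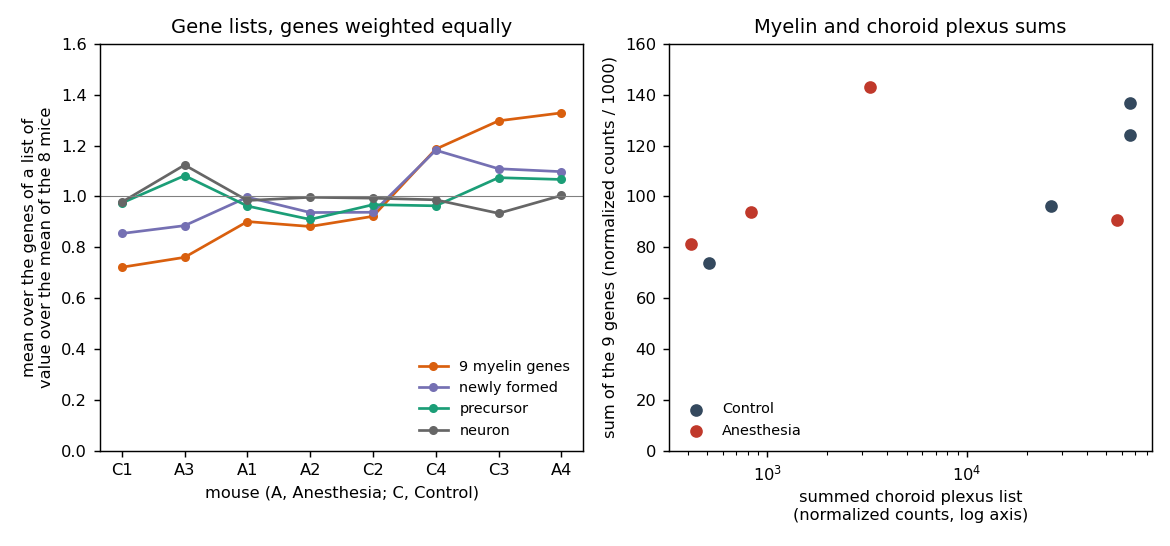
Left, value over the 8-mouse mean, averaged over the genes of each of 4 lists with equal weight (linear axis from 0), with mice ordered by the myelin sum; the 9 myelin genes run from 0.722 to 1.33, newly formed oligodendrocyte genes from 0.854 to 1.18, precursor genes from 0.910 to 1.08 and neuron genes from 0.934 to 1.12. Right, sum of the 9 genes (normalized counts / 1000, linear axis from 0) against the summed choroid plexus list (log axis). The mouse highest in the 9 genes has 3261 normalized counts of choroid plexus genes. The mice lowest in the 9 genes, Control 1 and Anesthesia 3, have 510.9 and 414.6, and Control 3 and Control 4 have 66127 and 66009.

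When the mean log2 value of the 9 members was entered as a covariate, an alternative chosen after seeing the data that compares the groups at an equal level of myelin genes, 0 of 18856 other genes (0%) passed an adjusted p of 0.05 and 1385 (7.35%) an unadjusted p of 0.05. Of the 29 further myelin genes, 5 had an unadjusted p under 0.05, 3 fitted higher and 2 lower in the Anesthesia group. Of these, Nfasc and Cntn2, fitted higher, and Cd9 and Trf, fitted lower, are named here after their values were seen. Of the 12 transcription factors, Olig2, Nkx6-2 and Sox8 had an unadjusted p under 0.05 with the covariate, all fitted higher, at 0.26, 0.38 and 0.24 on the log2 scale, with limma adjusted p of 0.663 to 0.671.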

How the data were processed

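Hippocampal RNA of 8 mice, 4 Anesthesia and 4 Control, was sequenced. The authors ran Salmon (v1.1.0) on GRCm38 with GC bias correction, imported gene-level values with tximport (R v3.5.3) and normalized them with DESeq2 (v1.30.1), and the deposited values are therefore a normalized signal, not read counts. The annotation release is not given in the sources used here, and symbols and transcript lengths were taken from GENCODE M21, which held 20784 of the identifiers. Since 46.1% to 68.3% of low values lay within 0.1 of a whole read, the files do not give back read counts, and a log-scale model was used.

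Groups were compared with limma (version 3.58.1, R version 4.3.3) on log2(value + 1) (trended prior variance, no covariate) over genes with a mean of at least 10, with the Benjamini-Hochberg method at 0.05. The fold changes understate the change of low genes. The 36 correlations between members used exact permutation tests (SciPy 1.17.1) with adjustment over the 36. Named genes were the 9 members, the 4 genes of highest mean of each lineage list (2 for other cell types, given here as sums) and the 10 most and 5 least alike genes, with exceptions stated, and some genes that meet this rule were left out of the text. The members, gene lists and tests were chosen with earlier results of these data known. Alternatives were limma voom, upper quartile and library size scaling, filters on low values, a pseudocount of 0.1, a replicate block, a GC and length correction, choroid plexus and thalamus covariates, an adjusted p of 0.10 and each mouse left out. The covariate of the members was added after seeing the data. Scripts were tested on simulated data. Libraries differed pairwise by an SD of the log2 ratio of 0.450 to 0.672, so none was a copy of another.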

Additional observations from a re-analysis of the deposited data

Results flagged for a closer look

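In each group of 4 mice, a value was singled out where the gap from the highest or lowest mouse to its neighbour, divided by the range, exceeded Dixon's 95% critical value. This was met in 14 of 148 groups examined, where about 7.4 would be met by chance. Many of the genes follow each other across mice and some sums hold genes also examined singly. The groups are therefore not separate observations, and the count was not tested. Of the 9 members, Mbp met it, with 57020 normalized counts in Anesthesia 4 against 31460 to 35290 in the other Anesthesia mice.

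Anesthesia 4 also stood above the other Anesthesia mice for Gpr17 (2197 against 1630 to 1644 normalized counts), Fyn (2195 against 1866 to 1922), Olig1 (1220 against 925.5 to 943.4) and Sox8 (1029 against 756.7 to 769.6). The summed further myelin genes without Enpp2 were 103900 normalized counts in that mouse against 70090 to 74480. Without Anesthesia 4 the median log2 fold change of the 9 members was -0.24, in place of -0.07.

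Anesthesia 1 stood above its group for the summed choroid plexus genes (56840 against 414.6 to 3261 normalized counts), for Ttr (53000 against 182.2 to 2679), for Kl (1317 against 174.2 to 322.7) and for Enpp2 (29320 against 3955 to 6486). It was low for the summed microglia genes (6420 against 7142 to 7253). Anesthesia 3 was high for the summed neuron genes (83670 against 74970 to 75190) and for Rora (2396 against 1414 to 1577). In the Control group, Control 3 was high for Vcan (1230 against 1017 to 1037).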

How the results depend on the processing

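No member and no lineage list had a gene with an adjusted p under 0.05 under any alternative run, and the adjusted p of the members lay between 0.666 and 0.999. Of 171 member values under alternatives, 142 kept the direction and 29 reversed. With the choroid plexus covariate Mbp was 0.16, Mog 0.029, Mag 0.10, Mobp 0.044, Cnp 0.095, Cldn11 0.027, Mal 0.037, Opalin 0.15 and Ermn 0.13 on the log2 scale, and with the thalamus covariate Mbp was 0.0015, so that 9 and 1 of 9 members were fitted higher. The cause of these changes was not tested.

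With each mouse left out in turn, Mbp ranged from -0.20 to 0.13, Mog from -0.34 to -0.03, Mag from -0.22 to 0.067, Mobp from -0.27 to 0.014, Cnp from -0.23 to 0.046, Cldn11 from -0.32 to -0.02, Mal from -0.33 to -0.03, Opalin from -0.18 to 0.12 and Ermn from -0.24 to 0.057. The median of the members ranged from -0.24 to 0.046 and 0 to 6 members were fitted higher. List medians ranged from -0.20 to 0.04 for further myelin genes, -0.08 to 0.06 for lipid synthesis, -0.0084 to 0.13 for transcription factors, -0.02 to 0.07 for precursors and -0.12 to 0.02 for newly formed oligodendrocytes. Over all genes the count at an adjusted p under 0.05 was 0 to 2 (2 without Control 1) and at an unadjusted p under 0.05 it was 1061 to 2022.

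That count was 1513 in the comparison reported, 1084 with a replicate block, 946 with GC and length correction and replicate block together and 875 with the choroid plexus covariate. Replicate numbers are shared in the labels, but same-numbered mice did not deviate together (correlations of -0.242, -0.109, -0.182 and 0.0194), 0 of 8 libraries correlated best with its own number, and the replicate block left the median of the members at -0.07 and changed no call at an adjusted p of 0.05. With 4 mice in each group the 95% intervals of the members spanned ratios from 0.651 to 1.39, and the deposited values do not keep the counts needed for a counting error.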
